A study of Mus musculus with 2 samples.

Results

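The genes described here encode the antioxidant and glutathione system and targets of the transcription factor NRF2. A set of 40 genes was named by function, and a gene was a member when its symbol was in the deposited count table. Of the 40 named genes 37 were listed, among 18987 genes in all, and Nqo1, Gpx8 and Mgst1 are not analysed here. All 37 had a mean of at least 1 CPM (counts scaled to a common library size) over both libraries, the filter that left 12086 genes.

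The data came from 2 libraries. Both were made from RAW264.7, a line of mouse macrophage-like cells that turns into osteoclasts when given the cytokine RANKL. One library was from RAW264.7 cells carrying an shRNA against Cpeb4, an RNA-binding protein gene, and the other from RAW264.7 cells carrying a control shRNA. Both cultures were plated at 7500 cells per cm2 and given RANKL at 100 ng/ml after 24 h, and the series title places the RNA at day 3 of RANKL. The labels do not name the shRNA sequence, the number of clones or the number of wells behind a library. With 1 library per group there was no replicate check and no test, so each difference below compares 2 libraries, not 2 conditions.

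Reactive oxygen species are handled in layers. Superoxide dismutases turn superoxide into hydrogen peroxide, and catalase, glutathione peroxidases and peroxiredoxins turn peroxide into water. Glutathione and thioredoxin supply the electrons and are recharged by reductases that use NADPH. NRF2, encoded by Nfe2l2, switches on many of these genes through antioxidant response elements, and it is held low by KEAP1 and opposed at the same DNA elements by BACH1. In osteoclast precursors RANKL raises reactive oxygen species, which act as a signal for differentiation, and NRF2 is known to restrain it.

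The total was 119350322 counts in the Cpeb4 shRNA library and 79399680 in the control shRNA library. Cpeb4 had 104 CPM in the Cpeb4 shRNA library and 345 CPM in the control shRNA library (log2 ratio -1.73, 95% counting interval -1.76 to -1.70). Ratios are Cpeb4 shRNA over control shRNA after TMM scaling, and the intervals cover counting error only. Of 8 osteoclast markers 7 had ratios past 2-fold downwards (87.5%, against 11.8% of all filtered genes). The other was Nfatc1, at -0.05 (1578 CPM in the Cpeb4 shRNA library and 1637 CPM in the control shRNA library). The summed level of the 8 was 10825 CPM in the Cpeb4 shRNA library against 48163 CPM in the control shRNA library. Of 8 macrophage markers 7 passed the filter and 2 of them were past 2-fold downwards (28.6%, against 11.8%), Cd68 and Tyrobp. Of the 7, 6 lay below 0, where 47.5% of all filtered genes did. The 1 above was Lyz2 at 0.998 (11.4 CPM with Cpeb4 shRNA and 5.71 CPM with control shRNA). The macrophage markers summed to 3319 CPM (Cpeb4 shRNA) and 5348 CPM (control shRNA). Lymphoid markers summed to 13 counts in the Cpeb4 shRNA library and 7 in the control shRNA library with 1 of 6 listed, and fibroblast and osteoblast markers to 87 and 50 counts in the same order with 5 of 9 listed. None of the 7 granulocyte and mast cell markers was listed. The part that the osteoclast marker difference has in the results below was not tested, and in bulk RNA fewer cells of a type and less RNA per cell cannot be told apart.

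As a whole the members took 0.535% of all counts in the Cpeb4 shRNA library (exact binomial interval 0.533 to 0.536) and 0.509% in the control shRNA library (0.508 to 0.511). The TMM-scaled sum ran the other way, 4931 CPM in the Cpeb4 shRNA library and 5521 CPM in the control shRNA library, so the direction of their combined level depends on the scaling. Of the 37 members 1 was at least 2-fold higher, Prdx4, where 14.6% of all filtered genes were. At least 2-fold lower were 5 members, Me1, Mgst3, Nfe2l1, Gss and Gstm1, or 13.5% of the members, where 11.8% of all filtered genes were. At 1.5-fold, 5 members were higher, against 26.4% of all filtered genes, and 11 were lower, against 22.1%. The members' share of lower genes at 2-fold was thus near the background. The median log2 ratio of the members was -0.26, beside 0.05 over all filtered genes.

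**Figure D1:**
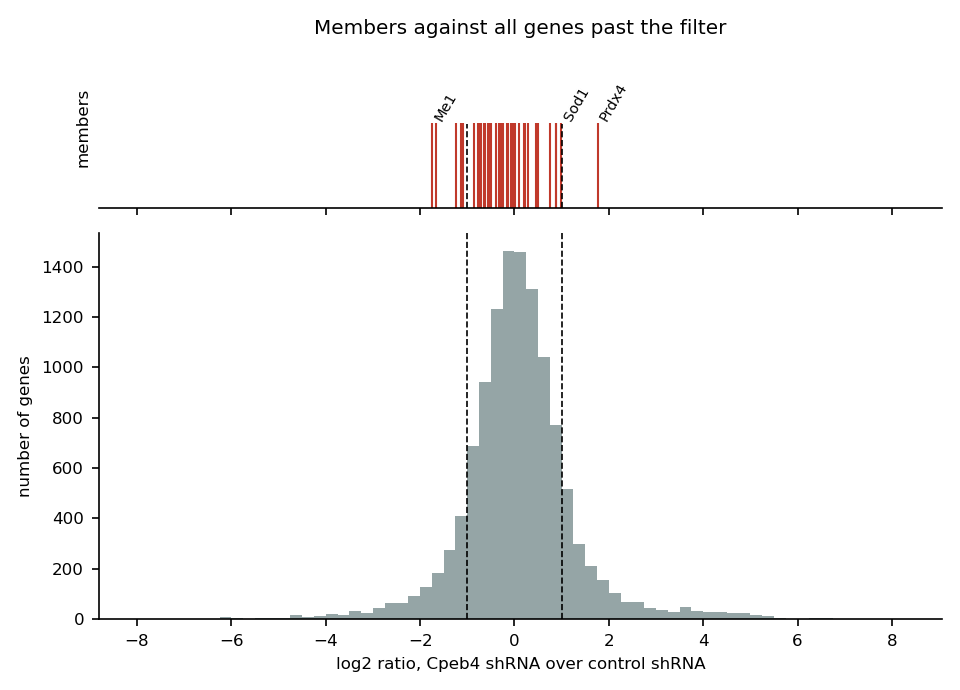
Log2 ratios (Cpeb4 shRNA over control shRNA) of the 37 members as red lines, above a histogram of the same ratio over all 12086 genes past the filter (y axis, number of genes; dashed lines, 2-fold). The members lie between -1.74 (Me1) and 1.76 (Prdx4), inside the broader spread of all genes, and Sod1 sits just short of the 2-fold line.

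Scaling mattered for the small differences. Scaling to total counts moved every log2 ratio by 0.23, which placed the median of all filtered genes at 0.28 and that of the members at -0.02. Under it 4 members were at least 2-fold higher (Prdx4, Sod1, Txn1 and Gsr) and 3 at least 2-fold lower (Me1, Mgst3 and Nfe2l1), where 20.6% of the same 12086 genes were higher and 8.6% lower. A total of 31 members kept the sign of their ratio under all 7 alternatives that recompute it, 11 of them higher and 20 lower. The other 6, Nfe2l2, Gclm, Gpx1, Txnrd2, Glrx and Glrx5, changed sign under at least 1 alternative, and no direction is given for them. The 4 scalings among the 7 shift every ratio alike, so a ratio further from 0 than the shift keeps its sign under them. All 7 reuse the same 2 libraries and are not independent checks.

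**Figure D2:**
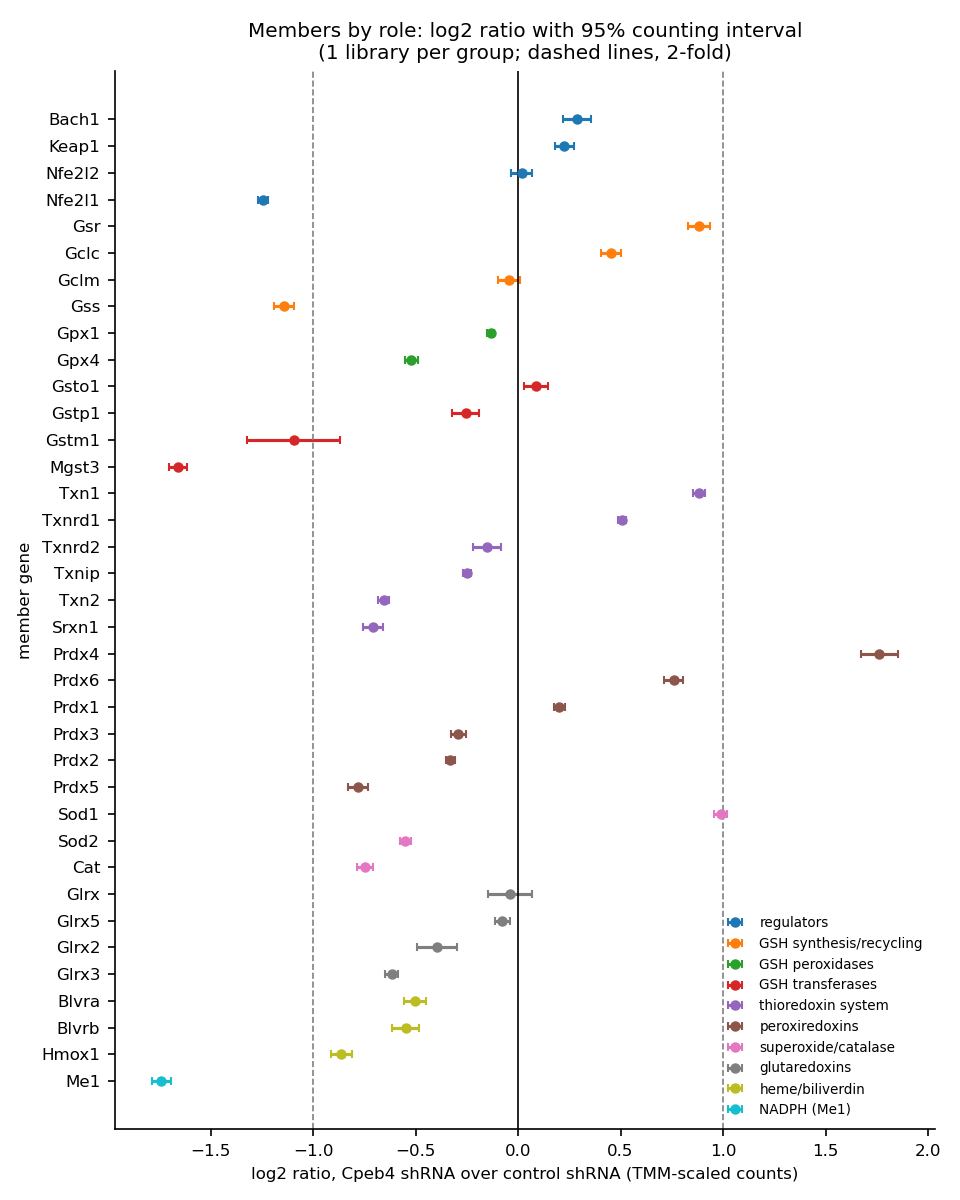
Log2 ratio of each member (x axis, Cpeb4 shRNA over control shRNA) with its 95% counting interval, grouped and coloured by role (GSH, glutathione; dashed lines, 2-fold; 1 library per group). Within most roles, members lie on both sides of 0, from Prdx4 at 1.76 to Me1 at -1.74.

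The regulators of the response were within 1.5-fold between the libraries, apart from Nfe2l1. Nfe2l2 (ENSMUSG00000015839; chromosome 2, 75675513 to 75704641, minus strand), which encodes NRF2, had 8719 counts (67.4 CPM) in the Cpeb4 shRNA library and 4876 counts (66.6 CPM) in the control shRNA library. Its log2 ratio of 0.02 had a counting interval of -0.03 to 0.07. Keap1, the adaptor that sends NRF2 to degradation, had 84.1 CPM in the Cpeb4 shRNA library and 71.9 CPM in the control shRNA library (0.23, interval 0.18 to 0.27). Of the 50-base stretches of the Keap1 transcript 10.4% also occur in Gm16754 on the opposite strand. Bach1, a repressor that competes with NRF2 for its DNA elements, had 40.7 CPM in the Cpeb4 shRNA library and 33.3 CPM in the control shRNA library (0.29, interval 0.22 to 0.36).

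Nfe2l1 was the regulator past 2-fold. It encodes NRF1, an endoplasmic reticulum-anchored relative of NRF2 best known for raising proteasome genes when proteasome activity is low. Nfe2l1 (ENSMUSG00000038615; chromosome 11, 96817414 to 96829968, minus strand, overlapping 0 other annotated genes) had 20959 counts (162 CPM) in the Cpeb4 shRNA library and 28111 counts (384 CPM) in the control shRNA library. That is a 2.37-fold lower level with Cpeb4 shRNA (log2 ratio -1.24, interval -1.27 to -1.22), and it was past 2-fold under all 7 alternatives. The ratio of Nfe2l2 to Nfe2l1 does not depend on scaling. Per length of all annotated exons of each gene it was 0.818 in the Cpeb4 shRNA library and 0.341 in the control shRNA library. That is a log2 difference of 1.26 (interval 1.21 to 1.32), which does not depend on the length used.

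The antioxidant response element was looked up in the promoters, since it is the sequence through which NRF2 acts. The core letters TGACNNNGC were searched on both strands of RefSeq promoters (GRCm38.p6, 250 bases before to 50 after an annotated start). A promoter was given for 33 of the 37 members, all but Gclc, Gsr, Hmox1 and Prdx6. Of the 33 members 8 held the core (24.2%), against 1818 of 10848 listed genes with a promoter (16.8%). The 8 sites are given on the strand that reads the core, 5′ to 3′, with the 9 core bases in capitals and 10 bases on either side.

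Prdx1 (chr4:116685456-116685484, minus strand): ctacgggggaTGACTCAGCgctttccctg
Me1 (chr9:86695902-86695930, minus strand): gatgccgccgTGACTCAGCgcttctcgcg
Txnrd1 (chr10:82859104-82859132, minus strand): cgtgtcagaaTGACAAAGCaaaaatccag
Gclm (chr3:122245413-122245441, minus strand): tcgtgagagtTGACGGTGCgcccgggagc
Nfe2l2 (chr2:75704885-75704913, minus strand): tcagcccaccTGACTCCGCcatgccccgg
Srxn1 (chr2:152105542-152105570, minus strand): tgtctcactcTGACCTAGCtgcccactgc
Blvra (chr2:127070598-127070626, minus strand): ggcggagcctTGACCGAGCaattcccgtg
Sod1 (chr16:90220696-90220724, minus strand): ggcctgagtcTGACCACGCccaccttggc

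Prdx1 and Me1 carried the same core, TGACTCAGC, which also holds the AP-1 motif TGANTCA. Their ratios differed in sign, 0.20 for Prdx1 and -1.74 for Me1. The median log2 ratio was -0.01 over the 8 members with a core and -0.33 over the 25 without. Over all filtered genes with a promoter it was -0.02 for the 1494 genes with a core and 0.04 for the 7303 without. A match of letters is a description of the window and says nothing of binding.

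Glutathione is made by glutamate-cysteine ligase and then glutathione synthetase, and the oxidised form is recycled by glutathione reductase. The genes for the last pair of steps lay on opposite sides. Gss, which encodes glutathione synthetase (ENSMUSG00000027610; chromosome 2, 155563181 to 155592810, minus strand), had 5775 counts (44.6 CPM) in the Cpeb4 shRNA library and 7215 counts (98.5 CPM) in the control shRNA library (log2 ratio -1.14, interval -1.19 to -1.09). Gsr, which encodes glutathione reductase (ENSMUSG00000031584; chromosome 8, 33652523 to 33698163, plus strand), had 12332 counts (95.3 CPM) in the Cpeb4 shRNA library and 3785 counts (51.7 CPM) in the control shRNA library (0.88, interval 0.83 to 0.94). Per length, Gsr was 1.57 times Gss in the Cpeb4 shRNA library and 0.385 times Gss in the control shRNA library. By this exon length the order of the 2 genes differed between the libraries. The difference of their log2 ratios was 2.03 (interval 1.95 to 2.10) and is free of scaling. Under total-count scaling Gss lay within 2-fold (-0.91) and Gsr past it (1.12). Gss overlaps 3 genes annotated on the opposite strand, so part of its counts is uncertain.

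The ligase subunits differed less. Gclc, the catalytic subunit and rate-limiting enzyme, had 95.5 CPM in the Cpeb4 shRNA library and 69.7 CPM in the control shRNA library (log2 ratio 0.45, interval 0.41 to 0.5). Gclm, the modifier subunit, had 58.6 CPM in the Cpeb4 shRNA library and 60.5 CPM in the control shRNA library. Its log2 ratio was -0.05 (interval -0.10 to 0.01), and 0.19 under total-count scaling. Gclc exceeded Gclm per length 2.66-fold in the Cpeb4 shRNA library and 1.88-fold in the control shRNA library.

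Both measured glutathione peroxidase genes were within 2-fold. Gpx1, the abundant cytosolic enzyme, had 542 CPM in the Cpeb4 shRNA library and 595 CPM in the control shRNA library (log2 ratio -0.13, interval -0.15 to -0.12). It lay at 0.10 under total-count scaling. Gpx4, which reduces lipid peroxides and protects against ferroptosis, had 139 CPM in the Cpeb4 shRNA library and 199 CPM in the control shRNA library (-0.52, interval -0.55 to -0.49). Of the 50-base stretches of the Gpx4 transcript 68.9% also occur in the pseudogene Gpx4-ps2, listed with 3475 counts in the Cpeb4 shRNA library and 2747 in the control shRNA library, so the split of reads between the copies is uncertain.

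The glutathione transferase group held some of the lowest ratios. Mgst3, a membrane-bound transferase and peroxidase of the microsomes (ENSMUSG00000026688; chromosome 1, 167371966 to 167393841, minus strand), had 6706 counts (51.8 CPM) in the Cpeb4 shRNA library and 11982 counts (164 CPM) in the control shRNA library. That is a 3.16-fold lower level with Cpeb4 shRNA (log2 ratio -1.66, interval -1.70 to -1.62), and 5.02% of all filtered genes had a lower ratio. Its transcript shares no 50-base stretch with another annotated gene (0%). Gstm1 had the fewest counts of any member, 297 in the Cpeb4 shRNA library and 359 in the control shRNA library. Its log2 ratio of -1.09 had an interval of -1.32 to -0.87, which spans the 2-fold limit, and total-count scaling placed it at -0.86. Of the Gstm1 50-base stretches 17.3% also occur in the pseudogene Gstm2-ps1, listed with 6 counts in the Cpeb4 shRNA library and 12 in the control shRNA library. Gsto1, a glutathione-dependent reductase of the omega class, was at 0.09 (interval 0.03 to 0.15). Gstp1 was at -0.26 (-0.02 under total-count scaling), with 62.3% of its 50-base stretches shared with Gstp2.

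In the thioredoxin system the cytosolic disulfide carrier and its reductase were higher. Txn1, which encodes cytosolic thioredoxin (ENSMUSG00000028367; chromosome 4, 57943373 to 57956411, minus strand), had 45651 counts (353 CPM) in the Cpeb4 shRNA library and 14010 counts (191 CPM) in the control shRNA library (log2 ratio 0.88, interval 0.86 to 0.91). Txnrd1, the cytosolic thioredoxin reductase and a classical NRF2 target, had 555 CPM in the Cpeb4 shRNA library and 389.8 CPM in the control shRNA library (0.51, interval 0.49 to 0.53). Both kept their direction under all 7 alternatives, and Txn1 was past 2-fold only with total-count scaling (1.12).

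Other genes of the system lay below 0. Txnip, the thioredoxin-interacting protein that binds and inhibits thioredoxin and also limits glucose uptake, had 356 CPM in the Cpeb4 shRNA library and 423 CPM in the control shRNA library (log2 ratio -0.25, and -0.02 under total-count scaling). The opposite-strand gene Gm15441 shares 18.5% of the 50-base stretches of Txnip. Txn1 exceeded Txnip per length 2.67-fold in the Cpeb4 shRNA library and 1.22-fold in the control shRNA library, a log2 difference of 1.13 (interval 1.10 to 1.17). Srxn1, the sulfiredoxin that repairs overoxidised peroxiredoxins, had 53.5 CPM in the Cpeb4 shRNA library and 87.4 CPM in the control shRNA library (-0.71, interval -0.76 to -0.66). Srxn1 kept this direction under all 7 alternatives.

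Peroxiredoxins, the thiol peroxidases that clear most cellular peroxide, split by member. Prdx4, which works in the endoplasmic reticulum and couples peroxide to disulfide formation in secretory proteins, had the highest ratio of all members. Prdx4 (ENSMUSG00000025289; chromosome X, 155323918 to 155340754, minus strand) had 7015 counts (54.2 CPM) in the Cpeb4 shRNA library and 1171 counts (16.0 CPM) in the control shRNA library. It was 3.39-fold higher in the Cpeb4 shRNA library (log2 ratio 1.76, interval 1.67 to 1.85), past 2-fold under all 7 alternatives, and 6.03% of all filtered genes had a higher ratio. No 50-base stretch of its transcript occurs in another annotated gene (0%).

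Of the other peroxiredoxins, Prdx6 and Prdx1 were higher and Prdx2, Prdx3 and Prdx5 lower. Prdx6, the 1-cysteine family member that reduces phospholipid peroxides, had 110.5 CPM in the Cpeb4 shRNA library and 65.3 CPM in the control shRNA library (log2 ratio 0.76, interval 0.71 to 0.81). Prdx1 had 301 CPM in the Cpeb4 shRNA library and 262 CPM in the control shRNA library (0.20), with 10.9% of its 50-base stretches found in other listed genes. Prdx2 was at -0.33 and the mitochondrial Prdx3 at -0.29, and total-count scaling brought them to -0.10 and -0.06. Prdx5 had 51.7 CPM in the Cpeb4 shRNA library and 88.8 CPM in the control shRNA library (-0.78, interval -0.83 to -0.73). The gene overlaps Trmt112 on the opposite strand, which shares 29.7% of the 50-base stretches of Prdx5 and had 69.7 CPM in the Cpeb4 shRNA library and 26.2 CPM in the control shRNA library, so the count of Prdx5 is uncertain. Prdx2 likewise shares 23.8% of its stretches with other listed genes, among them the pseudogene Tdpx-ps1 (8.96%) and the opposite-strand neighbours Junb (8.13%) and Rnaseh2a (6.72%), so its count is uncertain too.

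The superoxide dismutases differed in sign. Sod1, the cytosolic copper-zinc enzyme (ENSMUSG00000022982; chromosome 16, 90220754 to 90226329, plus strand), had 33997 counts (263 CPM) in the Cpeb4 shRNA library and 9697 counts (132 CPM) in the control shRNA library. It was 1.98-fold higher in the Cpeb4 shRNA library (log2 ratio 0.99, interval 0.96 to 1.02), and it passed 2-fold under total-count scaling (1.22), reference-gene scaling (1.02) and removal of the trend with transcript length and GC content (1.07). A pseudogene, Gm8566, shares 23.1% of its 50-base stretches and was listed with 709 counts in the Cpeb4 shRNA library and 175 in the control shRNA library. Sod2, the mitochondrial manganese enzyme, had 184 CPM in the Cpeb4 shRNA library and 269 CPM in the control shRNA library (-0.55, interval -0.58 to -0.52). Cat, the peroxisomal catalase, had 76.7 CPM in the Cpeb4 shRNA library and 129 CPM in the control shRNA library (-0.75, interval -0.79 to -0.71).

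Glutaredoxins use glutathione to reduce protein disulfides or to carry iron-sulfur clusters. All 4 were within 2-fold. Glrx3, which handles iron-sulfur clusters in the cytosol, had 127 CPM in the Cpeb4 shRNA library and 195 CPM in the control shRNA library (log2 ratio -0.62). Of its 50-base stretches 45.4% occur in a pseudogene, Gm12669, with 296 counts in the Cpeb4 shRNA library and 306 in the control shRNA library. Glrx2, a mitochondrial glutaredoxin, was at -0.40. Glrx and Glrx5, of which Glrx5 encodes a mitochondrial iron-sulfur cluster carrier, were at -0.04 and -0.08, and at 0.19 and 0.16 under total-count scaling.

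All 3 genes of heme breakdown were lower, and each kept that direction under all 7 alternatives. Hmox1, heme oxygenase 1, which opens the heme ring to biliverdin and is a target of both NRF2 and BACH1, had 5763 counts (44.5 CPM) in the Cpeb4 shRNA library and 5927 counts (80.9 CPM) in the control shRNA library (log2 ratio -0.86, interval -0.91 to -0.81). The biliverdin reductase genes Blvra and Blvrb were at -0.50 and -0.55. Their ratio to each other was alike in the libraries, with a log2 difference of 0.05 (interval -0.04 to 0.13).

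Me1 had the lowest ratio of all members. It encodes cytosolic malic enzyme, which makes NADPH from malate and is both a lipogenic gene and an NRF2 target. Me1 (ENSMUSG00000032418; chromosome 9, 86581371 to 86695953, minus strand) had 6015 counts (46.5 CPM) in the Cpeb4 shRNA library and 11372 counts (155 CPM) in the control shRNA library. That is a 3.34-fold lower level with Cpeb4 shRNA (log2 ratio -1.74, interval -1.79 to -1.69), and 4.63% of all filtered genes had a lower ratio. The pseudogene Gm7049, which shares 24.8% of its 50-base stretches, was listed with 177 counts in the Cpeb4 shRNA library and 471 in the control shRNA library.

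The 12 listed classical NRF2 targets among the members had no common direction. Under TMM scaling 5 were above 0 and 7 below 0, with a median log2 ratio of -0.15. At least 2-fold higher were 0, against 14.6% of all filtered genes. At least 2-fold lower were 2 (16.7%, against 11.8%), Me1 and Gstm1. Txn1, Gsr, Txnrd1, Gclc and Prdx1 were above 0 under all 7 alternatives, while Me1, Gstm1, Hmox1, Srxn1 and Blvrb were below 0 under all of them, as was Gstp1.

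Members were also grouped by compartment. The 6 members listed as mitochondrial (Txn2, Txnrd2, Prdx3, Sod2, Glrx2 and Glrx5) lay below 0 under TMM scaling, with a median of -0.34. Over all filtered genes 47.5% lay below 0. Txnrd2 and Glrx5 lay above 0 under total-count scaling (0.08 and 0.16), Glrx5 also after trend removal (0.02). This list was chosen with earlier results known and need not hold every member with a product in mitochondria. The ratio of a cytosolic gene to a mitochondrial gene of its family is free of scaling, and all 10 such pairs among the members were computed (Prdx4 and Prdx5, whose products work elsewhere or in several compartments, were not paired here). The families were grouped with the values known.

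The pairs did not share a direction. Of the 10, 7 had a higher cytosolic to mitochondrial ratio in the Cpeb4 shRNA library and 3 a lower one, and the counting intervals of 2 spanned 0. Per length, Sod1 was 13.1 times Sod2 in the Cpeb4 shRNA library and 4.5 times in the control shRNA library, a log2 difference of 1.54 (interval 1.5 to 1.58). Txn1 was 7.25 times Txn2 in the Cpeb4 shRNA library and 2.49 times in the control shRNA library (1.54, interval 1.5 to 1.58). For Txnrd1 and Txnrd2 the log2 difference was 0.66 (interval 0.59 to 0.73).

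In the larger families it depended on the cytosolic member. Against Prdx3, the log2 difference was 1.05 for Prdx6 (interval 0.99 to 1.11), 0.49 for Prdx1 (0.45 to 0.54) and -0.04 for Prdx2 (-0.08 to 0.0016). Glrx gave 0.36 against Glrx2 (0.21 to 0.5) and 0.04 against Glrx5 (-0.08 to 0.15). Glrx3 lay on the other side, at -0.22 against Glrx2 (-0.32 to -0.12) and -0.54 against Glrx5 (-0.59 to -0.49). Pairs that share a gene are not independent, and the intervals hold counting error alone and not the variation between cultures.

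**Figure D3:**
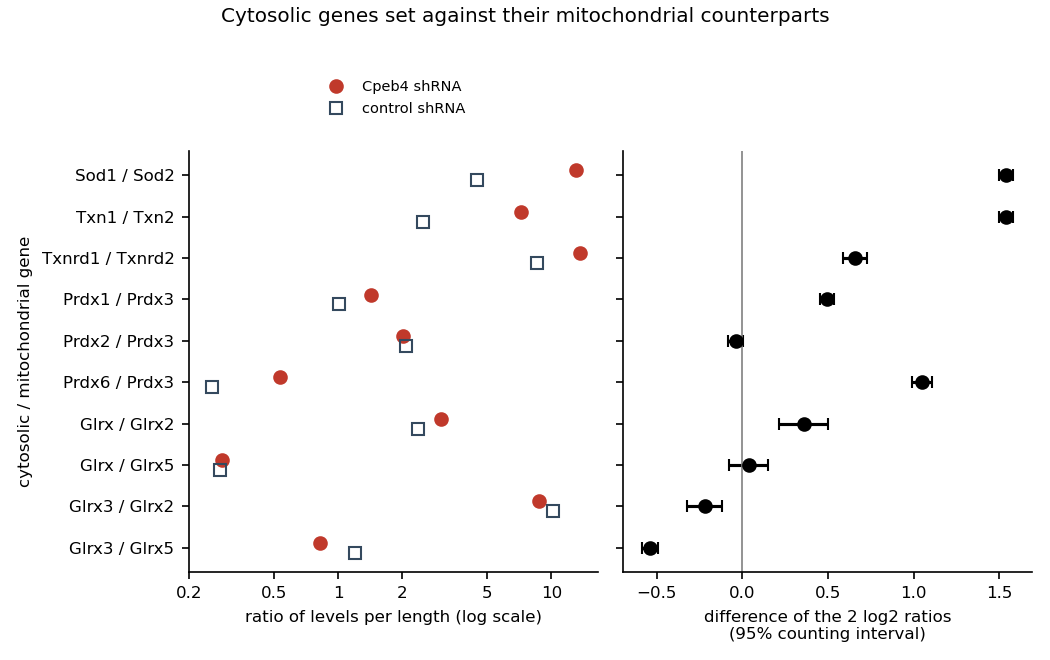
For 10 pairs of a cytosolic and a mitochondrial gene, the left plot gives the ratio of their levels per length (log axis) in the Cpeb4 shRNA library (filled circles) and the control shRNA library (open squares), and the right plot the difference of the 2 log2 ratios with its 95% counting interval. The differences range from -0.54 (Glrx3 and Glrx5) to 1.54 (Sod1 and Sod2), with 7 above 0 and 3 below.

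Levels per length of all annotated exons of a gene, scaled to a common sum (TPM), were also computed. This length can differ from that of the RNA present, so levels and ranks set between genes depend on it. The levels serve to order genes within a library, since TPM carries its own scaling and can differ in sign from the TMM ratio, as for Gpx1. Gpx1 was the most abundant member in both libraries, with 1175 TPM in the Cpeb4 shRNA library and 1124 TPM in the control shRNA library. Sod1 and Txn1 ranked 2 and 3 in the Cpeb4 shRNA library (953 and 780.5 TPM), and ranked 3 and 4 in the control shRNA library (418 and 369 TPM). Prdx2, with 390.2 TPM in the Cpeb4 shRNA library and 428 TPM in the control shRNA library, ranked 4 and 2. Gstm1 ranked last in both, with 3.90 TPM in the Cpeb4 shRNA library and 7.26 TPM in the control shRNA library. The members furthest apart in rank were Prdx4, at 10 in the Cpeb4 shRNA library and 30 in the control shRNA library, and Prdx6, at 13 and 27 in the same order.

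**Figure D4:**
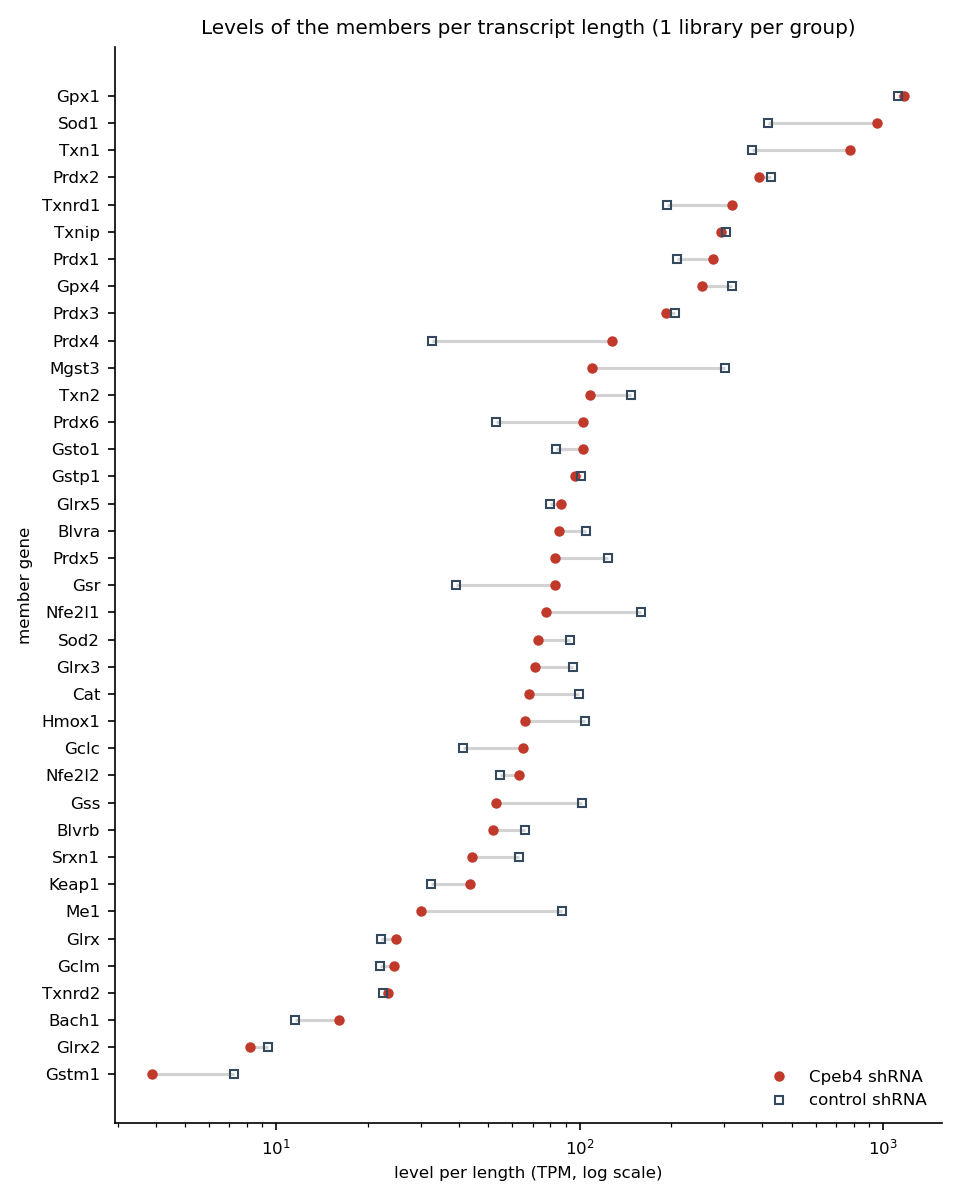
Level per length of each member (x axis, TPM on a log scale) in the Cpeb4 shRNA library (filled circles) and the control shRNA library (open squares), ordered by the Cpeb4 shRNA level. Gpx1, Sod1 and Txn1 are highest in the Cpeb4 shRNA library, and the widest gaps belong to Prdx4 (127 and 32.7 TPM), Me1 (29.95 and 87.2 TPM) and Mgst3 (109.8 and 302 TPM), Cpeb4 shRNA first.

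Other genes of the same pathways were counted in lists. NRF2 targets outside the members had 1 of 21 genes at least 2-fold higher (4.76%, against 14.6% of all filtered genes). It was G6pdx (1.15), the first enzyme of the pentose phosphate pathway. At least 2-fold lower were 3 (14.3%, against 11.8%): Osgin1 (-1.89), the epoxide hydrolase gene Ephx1 (-1.63) and the autophagy receptor gene Sqstm1 (-1.17). Ephx1 had 88 counts (0.68 CPM) in the Cpeb4 shRNA library and 154 (2.10 CPM) in the control shRNA library. It thus passed the filter through the control shRNA library alone. Of the 3 lower genes, 1 was left at a mean of 10 CPM. Tbxas1, thromboxane synthase, was at 0.73 (interval 0.34 to 1.14). It had 211 counts (1.63 CPM) in the Cpeb4 shRNA library and 72 (0.983 CPM) in the control shRNA library, so it passed through the Cpeb4 shRNA library alone. The median of the list was 0.08.

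NRF2 cofactors and turnover factors had 0 of 12 genes at least 2-fold higher, against 14.6% of all filtered genes. The 2 lower (16.7%, against 11.8%) were Maff (-1.21), a small MAF partner, and Sqstm1, whose product sequesters KEAP1. The coactivator genes Crebbp (0.56) and Ep300 (0.24) were highest. The list's median was -0.24, and under total-count scaling it was -0.0036 with 0 genes past 2-fold in either direction.

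Of 23 glutathione genes outside the members 7 were at least 2-fold higher (30.4%, against 14.6% of all filtered genes) and 1 lower (4.35%, against 11.8%), beside a list median of -0.04 (0.19 under total-count scaling). The 7 became 5 with a pseudocount of 1 CPM and 3 at a mean of 10 CPM. The theta-class transferase gene Gstt1 had 3453 counts (26.7 CPM) in the Cpeb4 shRNA library and 64 counts (0.874 CPM) in the control shRNA library (log2 ratio 4.93, interval 4.58 to 5.31), so it passed the filter through the Cpeb4 shRNA library alone. Its relative Gstt3 was at 3.53 (2103 counts in the Cpeb4 shRNA library and 103 in the control shRNA library). The others past 2-fold, named after their values were seen, were Mgst2 (2.17), Gstcd (1.54), Ggct (1.5), Cth (1.47) and Gstt2 (1.21). Chac1, a glutathione-degrading enzyme of the stress response, was the lower one (-1.65). Oplah was at -0.76 (interval -1.13 to -0.39). It had 127 counts (0.982 CPM) in the Cpeb4 shRNA library and 122 (1.67 CPM) in the control shRNA library, so it passed through the control shRNA library alone.

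Selenoproteins and other thiol and peroxide genes had 16 of 24 below 0 under TMM scaling, where 47.5% of all filtered genes were below 0. At least 2-fold higher were 2 (8.33%, against 14.6% of all filtered genes) and lower 6 (25%, against 11.8%). The median was -0.55, and under total-count scaling it was -0.31 with 4 lower. The small selenoprotein gene Selenow (3.0) and the arrestin-domain gene Arrdc4 (2.55), a relative of Txnip, were highest. Selenok (-2.03), a selenoprotein of the endoplasmic reticulum, and the stress-induced sestrin gene Sesn2 (-1.56) were lowest. Also past 2-fold, and named after their values were seen, were Selenos (-1.42), Pon2 (-1.33), Pon3 (-1.17) and Msrb1 (-1.10). The machinery that inserts selenocysteine had 0 of 9 genes higher (against 14.6%) and 1 lower (11.1%, against 11.8%), Scly (-1.53), the lyase that recovers selenium. Eefsec, its elongation factor, was at 0.99 and past 2-fold under total-count and reference-gene scaling, Sephs1 at 0.36 and Secisbp2l at -0.30.

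NADPH supply genes went both ways. Of 20 genes 4 were at least 2-fold higher (20%, against 14.6% of all filtered genes) and 3 lower (15%, against 11.8%). The list's median was 0.11, and 0.34 under total-count scaling. Nadk2 (1.59), the mitochondrial NAD kinase, and the mitochondrial folate gene Mthfd1l (1.53) were highest, and Rpia (1.44) and G6pdx were also past 2-fold, Rpia being named after its value was seen. Aldh1l1, a cytosolic folate dehydrogenase that yields NADPH, had 90 counts (0.696 CPM) in the Cpeb4 shRNA library and 2920 (39.9 CPM) in the control shRNA library. Its log2 ratio was -5.84 (interval -6.16 to -5.54), and it passed the filter through the control shRNA library alone. H6pd, which makes NADPH inside the endoplasmic reticulum, was at -1.75, and Aldh1l2, likewise named afterwards, at -1.44.

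Sources of superoxide were also measured. Of 9 genes 3 were at least 2-fold higher (33.3%, against 14.6% of all filtered genes), all of them components of the phagocyte NADPH oxidase: Ncf1 (2.58, with 1918 counts in the Cpeb4 shRNA library and 182 in the control shRNA library), Cyba (1.81) and, from 272 and 73 counts in the same order, Cybb (1.08). Cybb was named after its values were seen, had 0.997 CPM in the control shRNA library and an interval of 0.70 to 1.47 that spans 2-fold. The 3 became 2 with a pseudocount of 1 CPM or with the limit set on the interval, and 1 at a mean of 10 CPM. The GTPase gene Rac2, which activates that oxidase, was at -0.95. The xanthine oxidase gene Xdh, at -1.51, was the 1 gene at least 2-fold lower (11.1%, against 11.8% of all filtered genes). The list's median was -0.08, and 0.16 under total-count scaling.

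Heme and iron genes lay mostly below 0, 17 of 22 under TMM scaling, where 47.5% of all filtered genes were below 0. Of these genes 1 was at least 2-fold higher (4.55%, against 14.6% of all filtered genes), the mitochondrial iron importer gene Slc25a37 (1.3). The lower ones were 5 (22.7%, against 11.8%), and the list's median was -0.70. Under total-count scaling 3 were lower and the median was -0.47. Tfrc, the transferrin receptor, had 1872 CPM in the Cpeb4 shRNA library and 7275 CPM in the control shRNA library (-1.96), and Hebp1 was at -1.42. Slc11a2 (-1.28), Ncoa4 (-1.22) and Fech (-1.06) were the others, named after their values were seen. Alad, an enzyme of heme synthesis, was at 0.52.

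**Figure D5:**
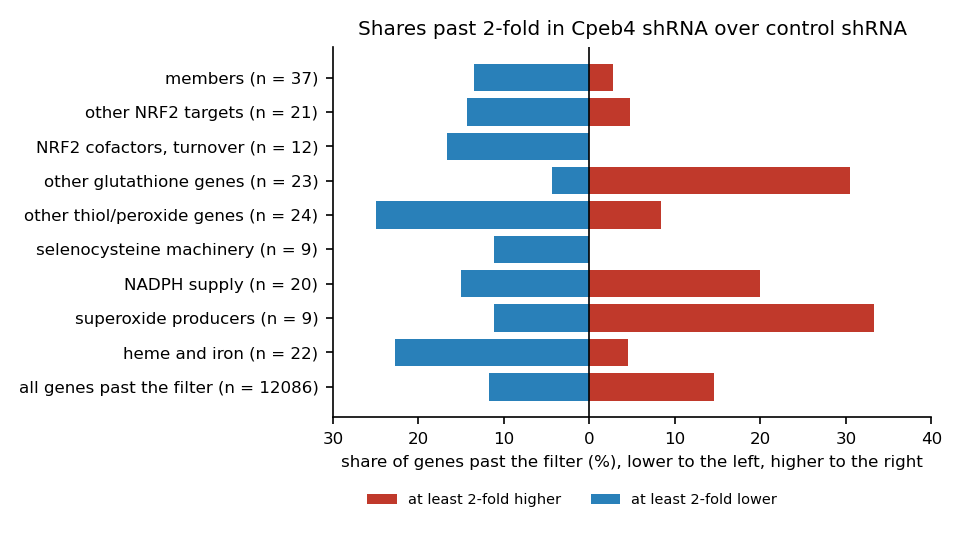
Share of genes past the filter (x axis, percent) that were at least 2-fold higher (red, to the right) or lower (blue, to the left) in Cpeb4 shRNA over control shRNA, for the members, 8 lists of related genes and all 12086 genes. Glutathione genes outside the members have 30.4% higher and 4.35% lower, while the members have 2.70% higher and 13.5% lower.

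Since the targeted protein binds cytoplasmic polyadenylation elements, the letters TTTTAT and TTTTAAT were counted in the 3′ UTR of 1 GENCODE M21 transcript per gene. Of the 37 members 20 held at least 1 (54.1%), against 60.4% of 10400 filtered genes with a 3′ UTR. Sod2 held most, 16, in a 3′ UTR of 4963 bases, and Gsr and Gclm held 7 each. Among the members furthest from 0, Me1 held 2, Mgst3 2 and Nfe2l1 3, and Prdx4, Gss and Gstm1 held 0. The median log2 ratio was -0.16 over members with a motif and -0.29 over those without. Over all filtered genes with a 3′ UTR it was 0.07 with a motif and -0.04 without. Longer UTRs hold more matches, and the median length was 1466 bases in members with a motif and 340.0 bases in those without.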

How the data were processed

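RNA-seq gene counts from RANKL-treated RAW264.7 cells were used, with 1 Cpeb4 shRNA library and 1 control shRNA library. The deposited table held whole-number counts per gene, each at least 1 in both libraries. Alignment used HISAT2 and mm10, per the submitters' processing notes. Of the aligner's version, the gene annotation and how reads were counted, strand included, nothing is stated in those notes or the labels. Genes without a count in either library are not analysed here, and neither are fold bounds against 0.

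Counts were scaled with TMM in edgeR 4.0.16 (R 4.3.3). A mean of at least 1 CPM was required. Each log2 ratio has a 95% interval derived from the exact (Clopper-Pearson) binomial limits of the Cpeb4 shRNA share in the sum of both counts. The interval of a difference between 2 genes' ratios was the large-count interval of the odds ratio (scipy 1.17.1). These cover counting error only, since PCR copies are not independent molecules and the variation between cultures was not measured. Nothing was tested, and no p-value is given. Differences were counted by size, at least 2-fold or 1.5-fold. Levels per length (TPM) used the joint length of all annotated exons of a gene, not the length of an expressed transcript. The exons came from GENCODE M21 for GRCm38, in which 18935 of the listed identifiers were found. The 50-base stretches shared between transcripts came from the same release. Coordinates are on GRCm38, the assembly that mm10 names. Promoters came from RefSeq on GRCm38.p6.

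The members and lists were chosen with earlier results of these data known. The named genes were all members, Cpeb4, and the 2 highest and 2 lowest of each related list, with any gene past 2-fold in lists of at most 15 genes. Alternatives were total-count, DESeq2 1.42.0, upper-quartile and reference-gene scaling, a pseudocount of 1 CPM, thinning of the deeper library, other filters and thresholds, and removal of members with shared sequence. The 7 that recompute a gene's ratio were the 4 scalings, the pseudocount, thinning and removal of the trend with transcript length and GC content (lowess), the last chosen after seeing the data. The computation was run on simulated counts that held counting error alone, with equal numbers of genes raised and lowered. Such counts cannot check the choice of scaling or the variation between cultures.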

Additional observations from a re-analysis of the deposited data

How the results depend on the processing

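With 1 library per group no variation between cultures can be seen, and differences under about the size of a scaling shift depend on the scaling. No paired analysis was possible because the design has a single library on each side. No member past 2-fold changed sign under any of the 7 alternatives. Scaling to the 20 reference genes used here moved every ratio by 0.03, with Tfrc at -1.96 among those genes.

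The count of members at least 2-fold higher, 1 in the main result, was 4 under total-count scaling, 2 under reference-gene scaling and trend removal, 5 at 1.5-fold and 0 at 4-fold. The count at least 2-fold lower, 5, was 3 under total-count scaling, 11 at 1.5-fold, 0 at 4-fold and 2 without the 12 members that share at least 5% of their 50-base stretches with listed genes. The members' median of -0.26 was -0.0230 under total-count scaling, -0.22 under reference-gene scaling and -0.13 without those 12 members. All filtered genes at least 2-fold higher and lower numbered 1765 and 1421. They were 3217 and 2930 without a filter, 1025 and 907 at 10 CPM, 3191 and 2674 at 1.5-fold, and 582 and 426 at 4-fold, as these settings test more or fewer genes or move the limit.

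Under TMM scaling group medians were 0.12 for regulators (4 genes), 0.20 for glutathione synthesis and recycling (4), -0.33 for glutathione peroxidases (2) and -0.68 for transferases (4). They were -0.20 for the thioredoxin system (6), -0.04 for peroxiredoxins (6), -0.55 for dismutases and catalase (3), -0.24 for glutaredoxins (4), -0.55 for heme breakdown (3) and -1.74 for Me1. Under total-count scaling, which shifts every ratio alike, group medians were 0.35 for regulators, 0.44 for glutathione synthesis and recycling, -0.0945 for glutathione peroxidases, -0.44 for transferases, 0.0340 for the thioredoxin system, 0.19 for peroxiredoxins, -0.32 for dismutases and catalase, -0.0040 for glutaredoxins, -0.31 for heme breakdown and -1.51 for Me1. Trend removal gave 0.0594, 0.0978 and -0.18 for the first 3 groups, -0.14 for the thioredoxin system, -0.0828 for peroxiredoxins, -0.72 for dismutases and catalase, -0.47 for heme breakdown and -1.80 for Me1. Peroxidases were at -0.36 under upper-quartile scaling and thinning and -0.30 under reference-gene scaling. Peroxiredoxins were at -0.0809 under upper-quartile scaling, -0.0802 under thinning and -0.0133 under reference-gene scaling. Dismutases and catalase were at -0.59 and -0.52 under upper-quartile and reference-gene scaling. Transferases were at -0.26 at a mean of 10 CPM, since Gstm1 drops out.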
